A study of Mus musculus with 2 samples.

Results

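The nuclear genes for the subunits of oxidative phosphorylation were followed across the cell classes of mouse tumour-draining lymph nodes and between 2 genotypes. Members were chosen by symbol, as genes whose names start with Nduf, Uqcr, Cox4, Cox5, Cox6, Cox7, Cox8, Atp5 or Sdh, without Cox6a2, pseudogenes and "-ps" entries. This gave 94 of the 25815 genes with at least 1 unique molecular identifier (UMI, a tag that marks 1 captured transcript), and all 94 had a UMI in each library. Of these, 82 encode subunits: 36 of complex I, 4 of complex II, 8 of complex III, 17 of complex IV and 17 of complex V. Ndufa4 was counted in complex IV, where the protein resides. The remaining 12 were assembly factors that share the prefixes, 8 for complex I (Ndufaf genes) and 4 for complex II (Sdhaf genes), and they were kept apart from the subunits. Cox6a2 and Ndufb1-ps were left out by the rule.

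The study compared inguinal nodes that drain a tumour, taken from wild-type (WT) mice and from ATG5LEC-KO mice, which lack the autophagy gene Atg5 in their lymphatic endothelial cells (LECs). The Atg5 protein, joined to Atg12, helps lipidate LC3 as autophagosomes form. The WT library came from 13 pooled nodes and the ATG5LEC-KO library from 9, with viable endothelial cells (Ter119-, CD45-, CD31+) and viable leukocytes (CD31-, Ter119-, CD45+) sorted and then combined before single-cell RNA sequencing. There was 1 library per genotype, so no difference between genotypes has a replicate check, no test was made, and genotype cannot be told apart from the pool, the preparation or the library. The tumour, the number, age and strain of the animals, the driver of the deletion and the deleted part of Atg5 are not given in the sources used here. Atg5 itself was found at 40.8 CPM (UMIs of a gene per 1000000 UMIs of the class) in WT LECs and 44.3 CPM in ATG5LEC-KO LECs, from 235 and 70 UMIs. Because molecules were captured at their 3' ends and the deleted part is not given, this level does not check the deletion.

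Oxidative phosphorylation takes place in the inner mitochondrial membrane. Complex I takes electrons from NADH and complex II from succinate, complex III passes them to cytochrome c, and complex IV hands them to oxygen. Complexes I, III and IV pump protons, and complex V, the ATP synthase, uses the proton gradient to make ATP. Most subunits are encoded in the nucleus, whereas core subunits of complexes I, III, IV and V are encoded by the mitochondrial genome (the mt- genes), so both genomes contribute to these 4 complexes and complex II is wholly nuclear. Endothelial cells are known to make much of their ATP by glycolysis, and proliferating LECs and lymphocytes are known to need a working respiratory chain.

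Promoters are shown for subunits at the ends of the order of levels between LECs and B cells, since that was the widest difference among the classes compared. The order covers subunits with at least 100 UMIs over both classes in each library. Ndufa11, with too few UMIs for this order, also had an NRF1 match. Each line gives the 250 bases upstream of the RefSeq transcript start on the GRCm38.p6 assembly, 5′ to 3′ on the gene's strand. Uqcr11 (chr10:80406822-80407071, minus strand) had the highest ratio of LECs to B cells. Ndufs5 (chr4:123718187-123718436, minus strand), Ndufa8 (chr2:36049339-36049588, minus strand) and Cox6a1 (chr5:115348959-115349208, minus strand) were the 3 highest with a match to the NRF1 motif. Uqcrh (chr4:116075071-116075320, minus strand) was the lowest subunit with a RefSeq promoter entry. Capitals mark matches to 4 of the 5 motifs searched on both strands: NRF1 (GCGCA-N-GCGC), ETS (CCGGAAG), ERR (CAAGGTCA) and Sp1 (GGGCGG). The other motif, YY1 (AAGATGGC), had no match in any subunit promoter. No capitals of different motifs overlapped in these promoters.
Uqcr11: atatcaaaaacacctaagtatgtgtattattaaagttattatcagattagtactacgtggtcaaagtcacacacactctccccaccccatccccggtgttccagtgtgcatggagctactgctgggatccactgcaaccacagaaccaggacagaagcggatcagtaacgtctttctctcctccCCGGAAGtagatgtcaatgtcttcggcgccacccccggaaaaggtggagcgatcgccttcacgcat
Ndufs5: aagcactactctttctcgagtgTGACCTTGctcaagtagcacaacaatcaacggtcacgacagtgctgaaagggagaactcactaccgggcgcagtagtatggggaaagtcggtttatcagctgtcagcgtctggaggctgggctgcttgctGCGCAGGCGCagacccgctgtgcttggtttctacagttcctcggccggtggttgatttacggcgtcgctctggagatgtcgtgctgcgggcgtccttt
Ndufa8: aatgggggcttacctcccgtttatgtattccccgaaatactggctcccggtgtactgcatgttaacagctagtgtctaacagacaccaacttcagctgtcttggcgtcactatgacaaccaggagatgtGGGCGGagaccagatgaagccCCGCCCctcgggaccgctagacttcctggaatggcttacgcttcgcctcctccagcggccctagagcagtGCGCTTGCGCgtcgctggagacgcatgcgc
Cox6a1: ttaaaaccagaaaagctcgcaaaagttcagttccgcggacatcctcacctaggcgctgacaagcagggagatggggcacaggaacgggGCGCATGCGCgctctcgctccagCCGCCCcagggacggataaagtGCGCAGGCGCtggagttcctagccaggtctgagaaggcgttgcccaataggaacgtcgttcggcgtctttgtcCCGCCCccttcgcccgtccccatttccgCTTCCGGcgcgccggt
Uqcrh: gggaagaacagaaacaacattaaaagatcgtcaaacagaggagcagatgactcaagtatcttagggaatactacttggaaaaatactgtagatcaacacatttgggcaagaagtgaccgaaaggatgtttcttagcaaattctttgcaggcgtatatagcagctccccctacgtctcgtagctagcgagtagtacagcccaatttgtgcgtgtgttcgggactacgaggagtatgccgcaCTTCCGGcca

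The NRF1 motif, named for a transcription factor known to act on respiratory chain genes, was in 12 of the 67 subunit promoters with an entry, or 17.9%, against 5.57% of all 17282 promoters of the same length. Ndufb4 and Sdha had 3 matches each, and Cox6a1 had 2. By complex, the motif was in 6 of 32 promoters of complex I, 2 of 3 of complex II, none of 5 of complex III, 1 of 13 of complex IV and 3 of 14 of complex V. It was in 14.5% of the 69 promoters of mitochondrial ribosomal proteins and in 1.54% of the 65 promoters of cytosolic ribosomal proteins. The ETS motif was in 16.4% of subunit promoters against 9.69% of all, the ERR motif in 4.48% against 1.09%, the Sp1 motif in 37.3% against 44.7%, and the YY1 motif in 0.00% against 1.65%. A match is a description of the letters and not of binding.

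The WT library held 23649554 UMIs and the ATG5LEC-KO library 23089918, and 3875 and 4165 cells were analysed, with medians of 3502 and 3336 UMIs per cell. These comprised 718 and 214 LECs, 553 and 486 blood endothelial cells (BECs), 1365 and 1581 B cells and 997 and 1665 T cells, all named by resemblance to marker genes. The LEC list summed to 7031 and 11275 CPM in LECs, with Prox1, the lymphatic identity factor, at 1320 and 1339 CPM. Flt1 marked BECs at 2082 and 2355 CPM, Cd79a marked B cells at 3230 and 2711 CPM and Cd3e marked T cells at 751.7 and 634.2 CPM. In LECs the B cell list summed to 57.9 and 55.0 CPM, with Cd79a at 2.78 and 4.43 CPM. The T cell list summed to 598 and 1115 CPM, of which Thy1, a gene also known from LECs, gave 541 and 1045 CPM, and Cd3e stood at 1.04 and 0 CPM. The BEC list, which holds genes shared by endothelium, summed to 3784 and 3934 CPM, and the plasmacytoid dendritic cell list to 1159 and 1334 CPM with 6 of its 10 genes found in each library. The part of these markers in the results was not tested. The libraries shared 15463 barcodes over all barcodes deposited, and 14 analysed cells carried a barcode that was an analysed cell of both. Cells of both sexes were mixed in different proportions: 71.2% of WT LECs that could be assigned were male, against 50.9% of ATG5LEC-KO LECs. Values by sex and by LEC sub-cluster are given beside the main differences between genotypes.

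Levels are CPM of the UMIs of a class without mt- genes, so that a change in mitochondrial transcripts does not move the nuclear ones. The summed mt- genes are the 13 mitochondrial mRNAs, given as a percent of all UMIs. Intervals are 95% intervals of counting error, take each UMI as independent and leave out the variation between cells, animals and preparations.

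Lymphatic endothelium stood above blood endothelium and both lymphocyte classes in the summed nuclear subunits, and this order did not hold for mt- transcripts. The 82 subunits summed to 10741 CPM in WT LECs and 11636 CPM in ATG5LEC-KO LECs, to 9430 and 9202 CPM in BECs, to 9209 and 8887 CPM in T cells and to 7108 and 6830 CPM in B cells. The order LEC, BEC, T cell, B cell was the same in both libraries over all cells on this scale. BECs and T cells changed places in WT male cells (9457 and 9561 CPM) and ATG5LEC-KO female cells (8154 and 8709 CPM). Their order held in WT female cells (10123 and 8740 CPM) and ATG5LEC-KO male cells (9522 and 9066 CPM). Cytosolic ribosomal proteins stood at 53747 and 51852 CPM in BECs and 164518 and 166397 CPM in T cells. With these genes taken out of the total, the values given here place T cells above BECs in both libraries. The order of these classes therefore depends on the scale. The mt- genes made up 7.24% and 10.41% of the UMIs of LECs, 10.22% and 10.08% in BECs, 9.67% and 9.82% in T cells and 9.57% and 9.55% in B cells. WT LECs therefore had 7.27 mt- UMIs for each nuclear subunit UMI and ATG5LEC-KO LECs 9.99, while B cells had 14.88 and 15.45. Barcodes of 10 to 100 UMIs, which stand for free RNA, held subunits at 5704 and 4647 CPM and 4.48% and 4.25% mt- UMIs, both below every class named here.

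**Figure D1:**
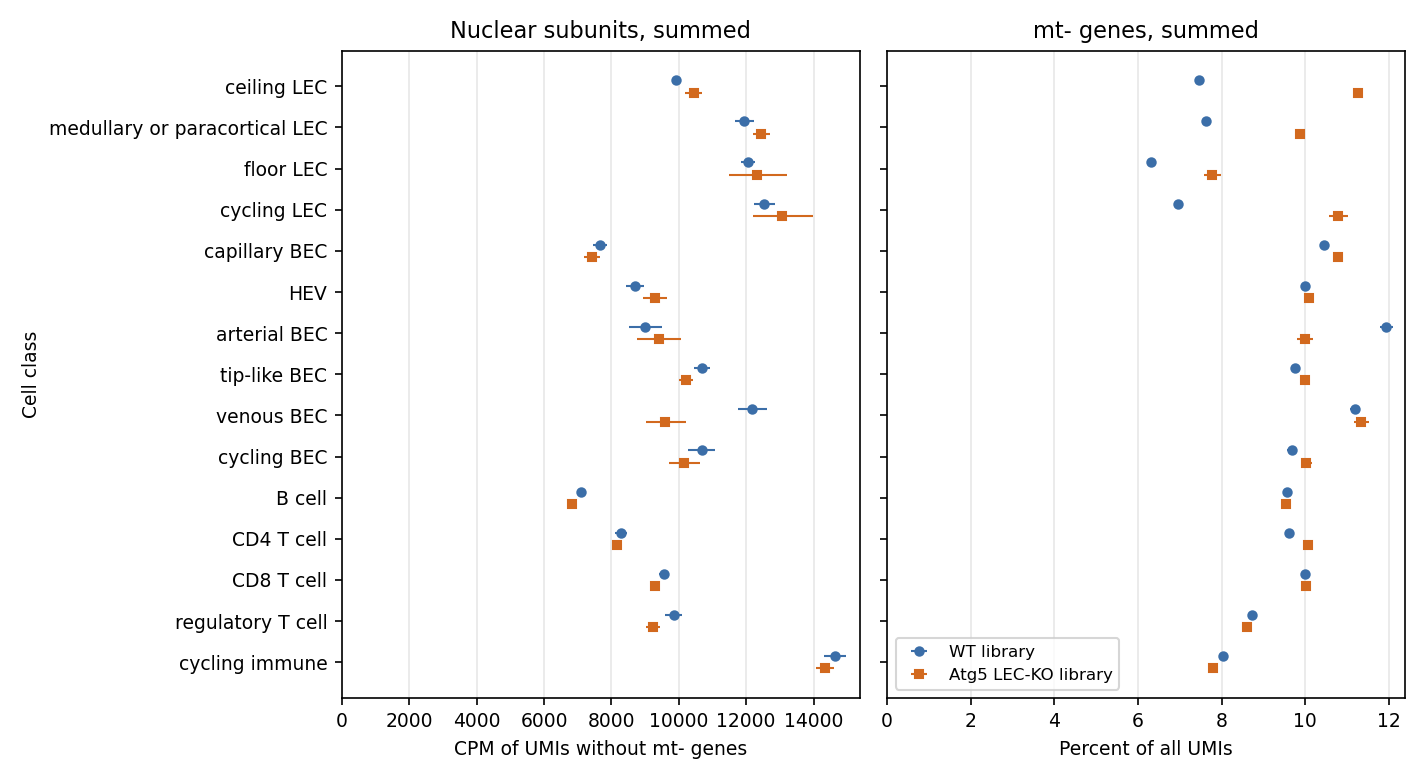
Summed nuclear subunits in CPM of UMIs without mt- genes and mt- genes as a percent of all UMIs, for each cell class, with circles for the WT library and squares for the ATG5LEC-KO library (written Atg5 LEC-KO in the plots) and bars for 95% counting intervals. B cells are lowest in nuclear subunits in both libraries, at 7108 and 6830 CPM, and the LECs differ between the libraries in mt- genes, at 7.24% and 10.41%.

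Within these broad classes, cycling lymphocytes, cycling LECs and particular vessel types stood highest, while cycling BECs stood at 10679 and 10165 CPM. Cycling lymphocytes reached 14638 and 14342 CPM and cycling LECs 12534 and 13059 CPM. Venous BEC-like cells followed in the WT library at 12184 CPM (11749 to 12630), floor-like LECs, the cells that line the inner wall of the subcapsular sinus, at 12063 CPM (11851 to 12277), and medullary or paracortical-like LECs, here called medullary-like, at 11944 CPM (11673 to 12219). These 3 did not differ beyond their counting intervals. In the ATG5LEC-KO library the medullary-like LECs stood at 12454 CPM, the floor-like LECs at 12324 CPM from 8 cells, and the venous BEC-like cells below both at 9599 CPM from 18 cells. Ceiling-like LECs, which line the outer wall of the subcapsular sinus, stood at 9927 and 10444 CPM. Among the BECs, tip-like cells stood at 10692 and 10220 CPM, high endothelial venule (HEV) cells, through which lymphocytes enter the node, at 8689 and 9284 CPM, and capillary-like cells at 7668 and 7416 CPM, next to the B cells.

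LECs exceeded B cells 1.51-fold (1.49 to 1.53) in the WT library and 1.70-fold (1.67 to 1.74) in the ATG5LEC-KO library over the summed subunits, and the difference was uneven over the complexes. Complex IV was 1.75-fold and 1.80-fold higher in LECs and complex I 1.59-fold and 1.81-fold. Complex III was 1.39-fold and 1.498-fold higher, complex V 1.34-fold and 1.62-fold, and complex II 1.195-fold and 1.52-fold. Complex IV took 29.6% and 26.6% of the subunit UMIs of LECs against 25.6% and 25.15% in B cells, and complex V took 30.1% and 32.5% against 33.9% and 34.1%. Cytosolic ribosomal proteins went the other way, at 0.497 and 0.550 times the B cell level. These genes fill a different part of the total in each class: with them left out as well, the ratio of LECs to B cells was 1.42 and 1.61.

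LECs exceeded BECs by less, 1.14-fold (1.12 to 1.16) and 1.26-fold (1.24 to 1.29). Depth differed between these classes. BECs below and above their median depth stood at 7649 and 10043 CPM in the WT library and 7285 and 9827 CPM in the ATG5LEC-KO library. The deeper BECs had medians of 6034 and 6696 UMIs. The shallower LECs, with medians of 5167 and 4835 UMIs, stood at 10512 and 10814 CPM, closer to the deeper BECs. The part of depth in the difference was not tested. All 5 complexes were higher in LECs in both libraries, from 1.08-fold for complex V to 1.22-fold for complex IV in the WT library, and complex IV was again the highest at 1.28-fold in the ATG5LEC-KO library. The mt- genes were at 0.709 times the BEC level in the WT library and 1.03 times in the ATG5LEC-KO library. T cells exceeded B cells 1.30-fold in both libraries. LECs exceeded T cells 1.17-fold and 1.31-fold in sum, with complex IV at 1.36-fold and 1.4-fold, complex I at 1.21-fold and 1.39-fold and complex V at 1.02-fold (0.993 to 1.04) and 1.21-fold. Cytosolic ribosomal proteins were at 0.338 and 0.362 times the T cell level in LECs. They stood at 55602 and 60286 CPM in LECs and 164518 and 166397 CPM in T cells. Taking them out of the total therefore raises T cells more than LECs and makes the ratio of LECs to T cells smaller. Its size without these genes was not computed.

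**Figure D2:**
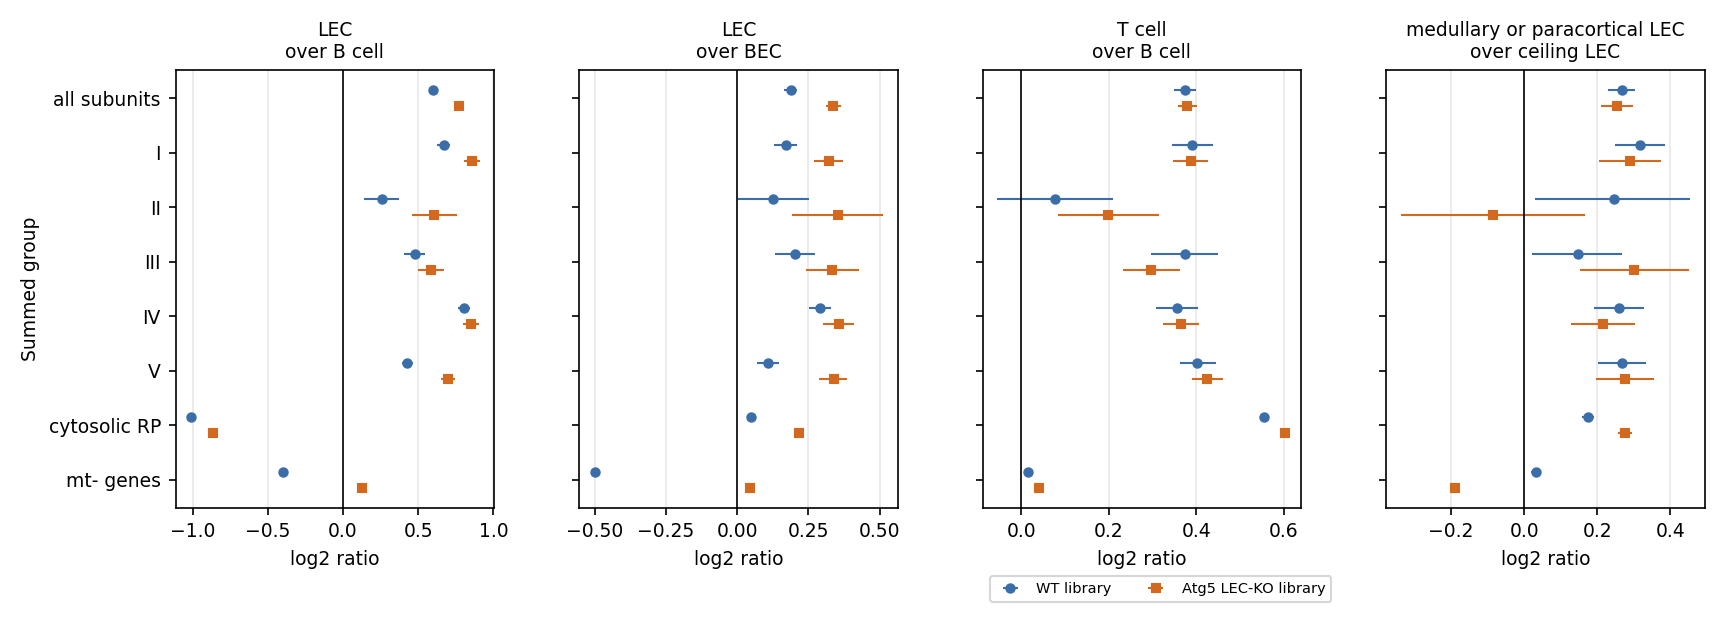
Log2 ratios between cell classes within each library for the summed subunits, each complex, the cytosolic ribosomal proteins and the mt- genes, in 4 panels (LEC over B cell, LEC over BEC, T cell over B cell, medullary-like over ceiling-like LEC), with circles for WT, squares for ATG5LEC-KO and bars for 95% counting intervals. In the panel of LEC over B cell every complex lies above 0, with complex IV at ratios of 1.75 and 1.80, and the cytosolic ribosomal proteins lie below 0.

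Among single members, 74 of the 82 subunits had at least 100 UMIs over LECs and B cells in each library. Of these, 67 were higher in LECs in both libraries and 3 were lower in both, Cox7a2l, Uqcrh and Ndufs1. A total of 36 were at least 1.5-fold higher in LECs in both libraries and none was as much lower, against 26.6% of all genes higher and 26.6% lower by the same rule. The median log2 ratio over the 74 was 0.58 in the WT library and 0.79 in the ATG5LEC-KO library, against -0.07 and -0.03 over all genes. By complex, the 36 comprised 17 of 34 members of complex I, 2 of 4 of complex II, 4 of 7 of complex III, 9 of 12 of complex IV and 4 of 17 of complex V. At 2-fold in place of 1.5-fold, 16 members remained past the threshold, and the share over all genes at 2-fold was not computed. Lists of neighbouring pathways held fewer: 7 of 53 mitochondrial ribosomal proteins, 1 of 17 enzymes of the tricarboxylic acid (TCA) cycle and 6 of 16 glycolytic genes, while 62 of 82 cytosolic ribosomal proteins were at least 1.5-fold lower in LECs.

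Uqcr11, a small subunit of complex III (chr10:80402997-80406830, minus strand, coordinates here and in the next paragraphs from GENCODE on mm10), had the highest ratio. It stood at 115 and 140.4 CPM in WT and ATG5LEC-KO LECs, 98.4 and 78.7 CPM in BECs, 41.4 and 35.0 CPM in T cells and 27.2 and 25.3 CPM in B cells. LECs were thus 4.22-fold (3.40 to 5.29) and 5.56-fold (4.39 to 7.08) above B cells, and both endothelial classes were above both lymphocyte classes. Within T cells, Uqcr11 was also the only member at least 1.5-fold higher in CD8-like than in CD4-like cells in both libraries, at 43.2 and 41.9 CPM against 26.3 and 23.1 CPM (1.65-fold and 1.81-fold), against 3.29% of all genes, and none was as much lower, against 3.03%. Its promoter, printed above, holds 1 ETS match and none to NRF1.

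Ndufc2, a membrane-arm subunit of complex I (chr7:97400003-97407802, plus strand), came next. It stood at 155 and 187 CPM in LECs and 49.9 and 44.0 CPM in B cells, ratios of 3.11 and 4.24. Cox6c, a small subunit of complex IV (chr15:35925886-35938246, minus strand), stood at 498 and 454 CPM in LECs, 345 and 280 CPM in BECs, 252 and 246 CPM in T cells and 178 and 152 CPM in B cells. LECs exceeded B cells 2.80-fold and 2.99-fold in Cox6c, and the 4 classes kept the same order in both libraries. Ndufa4, the complex IV subunit once assigned to complex I (chr6:11900292-11907497, minus strand), stood at 189 and 219 CPM in LECs, 126 and 140.5 CPM in BECs and 70.4 and 73.9 CPM in B cells. Its ratio of LECs to B cells was 2.68 and 2.97.

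At the low end, Uqcrh, the hinge protein of complex III (chr4:116066965-116075071, minus strand), stood at 277 and 305 CPM in LECs and 327 CPM in B cells of both libraries, with ratios of 0.847 (0.784 to 0.914) and 0.935 (0.841 to 1.04). T cells held the most Uqcrh, at 440.0 and 424 CPM. Ndufs1, the largest core subunit of complex I, stood at 44.2 and 49.3 CPM in LECs and 55.3 and 51.5 CPM in B cells, a ratio of 0.7995 (0.661 to 0.968) and 0.958 (0.730 to 1.247). Cox7a2l, a relative of Cox7a2 also known as a supercomplex factor that joins complexes III and IV, stood at 224 and 234 CPM in LECs and 251 and 246 CPM in B cells, a ratio of 0.890 (0.816 to 0.970) and 0.9498 (0.841 to 1.07). The intervals of all 3 members covered 1 in the ATG5LEC-KO library. Among the assembly factors, Sdhaf2, which attaches the flavin cofactor to Sdha, was the lowest at 0.703 and 0.640 times the B cell level.

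**Figure D3:**
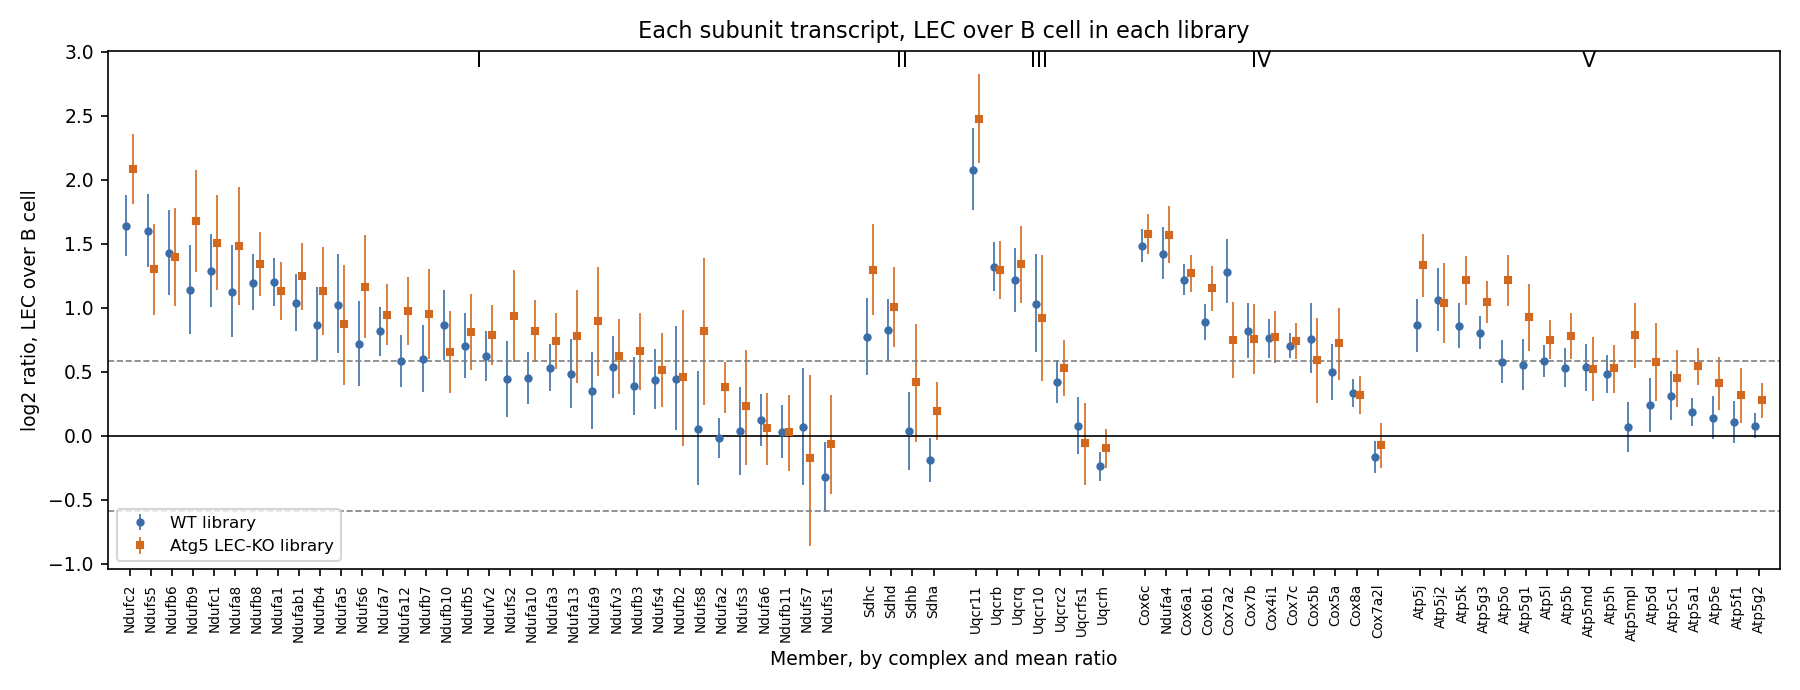
Log2 ratio of LEC to B cell CPM for each subunit with at least 100 UMIs over both classes in each library, grouped by complex, with circles for WT, squares for ATG5LEC-KO and dashed lines at 1.5-fold either way. Uqcr11 is the highest at ratios of 4.22 and 5.56, and the points for complex V lie lower than those for complex IV, with 4 of 17 and 9 of 12 members past 1.5-fold in both libraries.

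The 4 subunits of complex II, the only complex with no mitochondrially encoded part, divided into a pair of pairs. The membrane anchors were higher in LECs than in B cells: Sdhc stood at 60.02 and 81.6 CPM against 35.2 and 33.2 CPM, and Sdhd at 97.8 and 96.8 CPM against 55.3 and 48.1 CPM. Their ratios were 1.71 and 2.46 for Sdhc and 1.77 and 2.01 for Sdhd. The catalytic subunits were closer to level: Sdha, the flavoprotein, stood at 116 and 149 CPM against 133 and 130.4 CPM, and Sdhb, the iron-sulfur subunit, at 43.0 and 38.6 CPM against 42.0 and 28.9 CPM. The ratio of Sdha was 0.875 in the WT library and 1.15 in the ATG5LEC-KO library, so its direction differed between the libraries.

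Subunits that exist as tissue-specific isoforms were carried almost wholly by the widely expressed forms. Over all analysed cells the rarer forms gave 8 UMIs for Cox4i2, 58 for Cox6b2, 21 for Cox7a1, 5 for Cox7b2 and 12 for Ndufa4l2, and no row was found for Cox8b or Cox8c. Cox4i1, the common form of subunit 4, stood at 227 and 209 CPM in LECs and 134 and 122 CPM in B cells. Cox6a1 stood at 458 and 483 CPM in LECs and 197 and 200.4 CPM in B cells, ratios of 2.33 and 2.41, and Cox6b1 at 285 and 317 CPM against 154 and 143 CPM. Cox7a2 stood at 115 and 99.9 CPM in LECs and 47.1 and 59.4 CPM in B cells, ratios of 2.43 and 1.68, opposite in direction to its relative Cox7a2l. Cox7b stood at 123 and 116 CPM against 69.5 and 69.0 CPM, and Cox8a at 360 and 348 CPM against 286 and 279 CPM. Of the 58 UMIs of Cox6b2, a form known from testis, 25 lay in WT LECs and 7 in ATG5LEC-KO LECs.

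The 3 genes for the c-ring subunit of the ATP synthase encode the same mature protein. All 3 were higher in LECs than in B cells, by different amounts. Atp5g3 stood at 332 and 347 CPM in LECs and 190.4 and 168 CPM in B cells, ratios of 1.74 and 2.07. Atp5g1 stood at 123 and 132 CPM against 83.4 and 69.5 CPM, ratios of 1.47 and 1.90. Atp5g2, the member of complex V with most UMIs (13867 over all analysed cells), stood at 388 and 410 CPM against 368 and 339 CPM, ratios of 1.06 and 1.21. The catalytic subunit gene Atp5a1, with 11024 UMIs, was at ratios of 1.14 and 1.46. The members with most UMIs in complex IV were likewise uneven, at 1.63 and 1.67 for Cox7c and 1.26 and 1.246 for Cox8a, as were those of complex I, at 2.30 and 2.19 for Ndufa1 and 0.988 and 1.30 for Ndufa2. In complex III, Uqcrb, which binds ubiquinone, stood at 200.2 and 201 CPM in LECs against 80.3 and 82.0 CPM in B cells, and Uqcrc2, a core subunit, at 159 and 166 CPM against 119 and 115 CPM.

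Between the endothelial classes most members were slightly higher in LECs, and the few exceptions were specific. Of 73 subunits with enough UMIs, 54 were higher in LECs than in BECs in both libraries and 6 were lower in both. Only Ndufa4 was at least 1.5-fold higher (1.504-fold, 1.33 to 1.71, and 1.56-fold, 1.34 to 1.82), and only Ndufa8 at least 1.5-fold lower, against 10.7% and 11.9% of all genes. Other members toward the high end were Ndufa7, an accessory subunit of complex I, at 1.41-fold and 1.92-fold, Cox6c at 1.45-fold and 1.62-fold and Ndufb4 at 1.55-fold and 1.35-fold. Toward the low end were Ndufs1 at 0.779 and 0.964 times and Atp5j at 0.873 and 0.948 times.

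Ndufa8, an accessory subunit of complex I with twin cysteine motifs (chr2:36036326-36049406, minus strand), was thus a blood endothelial member within a lymphatic trend. It stood at 51.9 and 53.8 CPM in LECs, 116 and 102 CPM in BECs, 31.8 and 28.8 CPM in T cells and 23.8 and 19.2 CPM in B cells. LECs were at 0.449 (0.381 to 0.528) and 0.529 (0.409 to 0.679) times the BEC level, while BECs were 4.85-fold and 5.28-fold above B cells, the highest ratio of BECs to B cells among the subunits. The level differed within the BECs: Ndufa8 stood at 205 and 169.6 CPM in venous BEC-like cells, 149 and 158 CPM in HEV cells, 126 and 98.1 CPM in tip-like cells, 73.3 and 89.5 CPM in capillary-like cells and 64.9 and 45.0 CPM in arterial cells, the last from 10 and 4 UMIs. Niche LECs were close together, at 50.3 and 54.6 CPM in ceiling-like cells and 59.9 and 55.5 CPM in medullary-like cells. Its promoter, printed above, holds 1 NRF1 match and 2 Sp1 matches.

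BECs exceeded B cells in 59 of 75 subunits in both libraries, with 26 at least 1.5-fold higher and none as much lower, against 27.9% and 26.2% of all genes. T cells exceeded B cells in 66 of 76 subunits in both libraries, and 7 were at least 1.5-fold higher and none as much lower, against 14.1% and 13.4% of all genes. The 7 were Ndufa1, Ndufa10, Ndufb6 and Ndufv3 of complex I, Cox7a2l and Ndufa4 of complex IV, and Atp5h, a stalk subunit of complex V. Ndufv3, an accessory subunit next to the NADH-binding site, was the highest at 2.07-fold (1.74 to 2.47) and 1.98-fold (1.72 to 2.29). In the same comparison 32 of 82 cytosolic ribosomal proteins were at least 1.5-fold higher in T cells. Cox7a2l stood at 432 and 414 CPM in T cells against 204 and 151 CPM in BECs. This level was not particular to T cells, since floor-like LECs came near it in the ATG5LEC-KO library, as given below. Over all LECs, Cox7a2l was the only subunit at least 1.5-fold lower than in T cells (0.518 and 0.566 times), against 24% of all genes. In the other direction, 16 of 75 were at least 1.5-fold higher in LECs, against 25.3%.

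The T cell classes differed less. CD8-like cells stood at 9546 and 9279 CPM in summed subunits, regulatory T-like cells at 9844 and 9230 CPM and CD4-like cells at 8289 and 8173 CPM. CD8-like cells exceeded CD4-like cells 1.15-fold (1.12 to 1.18) and 1.14-fold (1.11 to 1.16), and 47 of 65 subunits were higher in both libraries. Cox7a2l was lower in regulatory T-like cells, at 290.1 and 290.9 CPM, than in CD4-like cells, at 464 and 424 CPM, and CD8-like cells, at 459 and 444 CPM.

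Among the LEC niches, floor-like and medullary-like cells held more nuclear subunit RNA than ceiling-like cells as a whole, but not than every ceiling-like sub-cluster. The largest, sub-cluster 0, stood at 11994 and 12737 CPM, close to medullary-like sub-cluster 8 (11636 and 12392 CPM) and to the floor-like cells, while ceiling-like sub-cluster 4 stood at 7313 and 6319 CPM. Sub-cluster 4, like sub-clusters 3, 5 and 6, had no ceiling marker among its leading genes. It also had the highest mt- share of the LEC sub-clusters in both libraries, at 9.20% and 15.75% of UMIs. Whether its cells were damaged was not tested. Medullary-like LECs exceeded ceiling-like LECs 1.203-fold and 1.19-fold, with 44 of 61 subunits higher and 2 lower in both libraries, none of them 1.5-fold, against 3.92% of all genes higher and 6.42% lower. The median log2 ratio was 0.26 in both libraries, against 0.03 and 0.01 over all genes. The highest members were Ndufb3 at 1.53-fold and 1.36-fold, Cox5b at 1.45-fold and 1.41-fold, Ndufa3 at 1.37-fold and 1.502-fold and Atp5mpl at 1.60-fold and 1.26-fold. The lowest were Uqcrfs1, the Rieske iron-sulfur protein of complex III, at 0.575 and 1.01 times, Ndufa6 at 0.930 and 0.807 times, Sdha at 1.05 and 0.831 times and Ndufs4 at 0.988 and 0.985 times. With finer clustering the sum ratio was 1.10 in both libraries. The largest ceiling-like sub-cluster also led with 2 floor markers, Bmp4 and Csf1, beside Ackr4, so the ceiling-like name is approximate.

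Floor-like LECs exceeded ceiling-like LECs 1.22-fold (1.19 to 1.24) in the WT library and 1.18-fold (1.10 to 1.27) among the ATG5LEC-KO cells, where only 8 floor-like cells were found. Complex IV was 1.37-fold and 1.31-fold higher and complex I 1.31-fold and 1.29-fold, whereas complex V was level at 1.03-fold (0.989 to 1.07) and 1.01-fold. Floor-like cells gave complex IV the largest share of subunit UMIs among the LEC niches of the WT library, at 32.65%, with 26.2% for complex V. The mt- genes were lower than in ceiling-like cells, at 0.846 and 0.691 times, and cytosolic ribosomal proteins were higher, at 1.45-fold and 1.55-fold. Of 31 subunits with enough UMIs, 20 were higher in both libraries and 2 at least 1.5-fold, and none was as much lower, against 8.03% and 22% of all genes. These were Ndufa1, at 254 and 302 CPM in floor-like against 161 and 188 CPM in ceiling-like cells, and Cox7a2l, at 349.7 and 408 CPM against 205 and 184 CPM.

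Between the genotypes, LECs of the ATG5LEC-KO library held slightly more nuclear subunit RNA and more mt- RNA. The summed subunits were at 11636 CPM against 10741 CPM in WT LECs, a ratio of 1.08 (1.07 to 1.10), and the mt- genes at 10.41% against 7.24% of UMIs, a ratio of 1.44 (1.43 to 1.45). In the median cell the nuclear subunits were 1.12% and 1.04% of UMIs and the mt- genes 10.5% and 6.80%. Over 10% of UMIs were mt- in 119 of 214 LECs of the ATG5LEC-KO library (55.6%) and 157 of 718 of the WT library (21.9%), whereas the share of such cells was 52.1% and 55.2% in BECs, 37.3% and 38.3% in B cells and 48.6% and 44.5% in T cells. On CPM of all UMIs, the nuclear ratio was 1.05.

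The complexes did not move alike. Complex V was at 1.17 times the WT level (1.14 to 1.203) and complex II at 1.15 times (1.05 to 1.27). Complex I was at 1.11 times (1.08 to 1.14) and complex III at 1.05 times (0.993 to 1.11). Complex IV stood at 0.976 times (0.945 to 1.01), so its share of the subunit UMIs was 26.6% against 29.6%. Assembly factors of complex I summed to 1.13 times (0.986 to 1.30) and those of complex II to 1.08 times. Cytosolic ribosomal proteins were at 1.08 times the WT level in the same cells, the same size as the summed subunits.

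The direction of the nuclear difference in LECs depended on which LECs were counted, and that of the mt- genes did not among the sub-clusters with enough cells. A total of 4 LEC sub-clusters held at least 20 cells in each library. In sub-cluster 0 (ceiling-like, 134 WT and 46 ATG5LEC-KO cells) the summed subunits were at 1.06 times the WT level (1.02 to 1.10) and in sub-cluster 8 (medullary-like, 38 and 89 cells) at 1.07 times (1.03 to 1.11). In sub-cluster 4 (ceiling-like, 79 and 24 cells) they were at 0.864 times (0.799 to 0.933) and in sub-cluster 6 (ceiling-like, 36 and 20 cells) at 0.866 times (0.813 to 0.921). With the 4 weighted equally, an alternative chosen after seeing the data, the ratio was 0.959 for all subunits, 0.983 for complex V, 0.985 for complex II, 1.005 for complex I and 0.892 for complex IV. The mt- genes were higher in all 4, at 1.30, 1.71, 1.49 and 1.13 times for sub-clusters 0, 4, 6 and 8. In the thinly filled sub-cluster 11 they were lower, at 8.47% of UMIs in 21 WT cells and 6.66% in 3 ATG5LEC-KO cells. Complex IV had a lower ratio than complex V in all 4, at 1.01 against 1.13, 0.776 against 0.870, 0.813 against 0.860 and 0.992 against 1.10. Sub-cluster 4, with the lowest nuclear and the highest mt- ratio of the 4, had the highest mt- share of the LEC sub-clusters in both libraries. The quality of its cells was not tested.

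Other measures moved with these sub-clusters. Sub-cluster 3 held 89 WT cells and none of the other library, and sub-cluster 5 held 104 and 6, with subunits at 9439 and 9696 CPM in the WT library. Immediate early genes stood at 25374 CPM in WT sub-cluster 3 and 49833 CPM in WT sub-cluster 5. In sub-cluster 4 they stood at 17523 CPM in the WT and 6829 CPM in the ATG5LEC-KO library, and in sub-cluster 6 at 22732 and 8092 CPM, while they were closer in sub-cluster 0 (15017 and 14047 CPM) and sub-cluster 8 (6270.0 and 7312 CPM). Over all LECs, none of 23 immediate early genes was higher in the ATG5LEC-KO library and 22 were at least 20% lower, with a median log2 ratio of -1.32, and 17 of 18 interferon-stimulated genes were higher, with a median of 0.97. Their part in the differences of the subunits was not tested.

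The sexes also differed. Among male LECs the summed subunits stood at 10904 CPM in the WT and 10939 CPM in the ATG5LEC-KO library, a ratio of 1.003, and among female LECs at 10217 and 12262 CPM, a ratio of 1.2. Complex V was higher in both sexes, at 1.13 and 1.22 times. Complex I was at 0.992 times in male and 1.29 times in female cells, and complex IV was at 0.886 times in male and 1.12 times in female cells. The mt- genes were higher in both, at 1.398 times in male and 1.55 times in female LECs.

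Medullary-like LECs, a niche with similar cell numbers in both libraries (79 and 97), had complex V as the highest and complex IV as the lowest complex, as in all LECs, while complexes II and III changed places in the order. The summed subunits were at 1.04 times the WT level (1.01 to 1.08), and at 0.988 times in male and 1.12 times in female cells, with complex V at 1.107 times (1.05 to 1.17), complex III at 1.09, complex I at 1.06, complex II at 0.987 and complex IV at 0.945 times (0.892 to 1.002). The mt- genes were at 1.29 times, 9.88% against 7.64% of UMIs. Sub-cluster 8 held 38 and 89 of these cells and sub-cluster 9 the other 41 and 8, so different sub-clusters hold most of the class in the libraries. Ackr4, a ceiling marker, stood at 738 CPM in the WT and 84.5 CPM in the ATG5LEC-KO medullary-like cells.

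**Figure D4:**
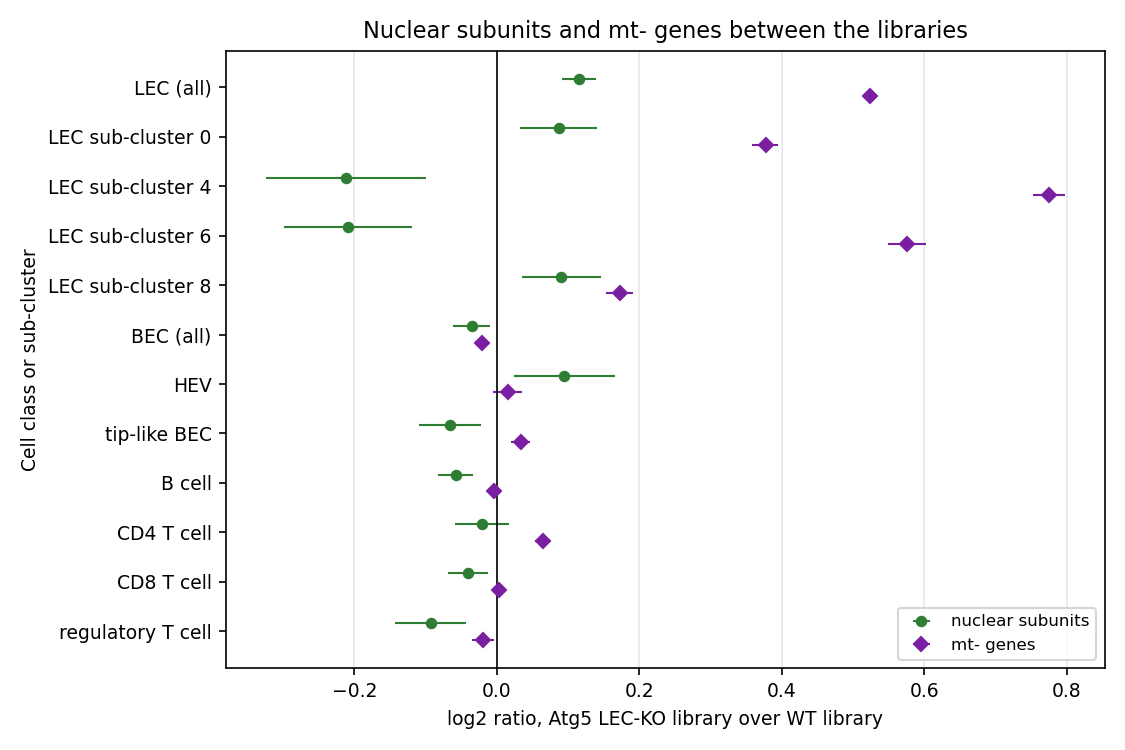
Log2 ratio of ATG5LEC-KO to WT for the summed nuclear subunits (circles, CPM without mt- genes) and the summed mt- genes (diamonds, share of all UMIs) in all LECs, LEC sub-clusters 0, 4, 6 and 8, BECs, HEV cells, tip-like cells, B cells and the T cell classes, with 95% counting intervals as bars. The mt- genes lie above 0 in all LECs (1.44 times) and in each of the 4 sub-clusters, whereas the nuclear subunits lie above 0 in sub-clusters 0 and 8 and below 0 in sub-clusters 4 and 6.

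Of the 82 subunits, 77 had at least 100 UMIs in LECs over both libraries, and the other 5 were the rare isoforms Cox4i2, Cox6b2, Cox7a1, Cox7b2 and Ndufa4l2. Of the 77, 54 were higher in the ATG5LEC-KO library and 23 lower, 16 at least 25% higher against 20% of all genes, and 2 at least 20% lower against 18.2%. These bounds are the same fold upward and downward. The count of 16 is near the share over all genes. The median log2 ratio was 0.09 against 0.03 over all genes. By complex it was 0.21 for complex V (14 of 17 higher, 7 by at least 25%), 0.17 for complex II (2 of 4 higher, both by at least 25%), 0.14 for complex I (27 of 36 higher, 7 by at least 25%, and 2 lower by at least 20%), 0.04 for complex III (5 of 8 higher) and 0.00 for complex IV (6 of 12 higher), the last 2 with no member past either bound. Only 1 member was past 1.5-fold, Ndufa11. In male cells 8 members were past the upper bound and 7 past the lower, in female cells 31 and none, and with the 4 sub-clusters weighted equally 4 and 16. For the counts at 1.5-fold, by sex and with equal weights, the share over all genes was not computed. These counts therefore have no background to be read against.

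The highest members in LECs were ATP synthase subunits and a small assembly factor. Atp5k, subunit e of complex V (chr5:108433244-108434448, minus strand), stood at 182 CPM in the WT and 259.9 CPM in the ATG5LEC-KO library, 1.43 times (1.27 to 1.60). In BECs it stood at 186 and 191 CPM, in B cells at 100.4 and 112 CPM and in T cells at 124 and 146 CPM. Atp5o, the subunit that joins the stator to the catalytic head (chr16:91925214-91931687, minus strand), stood at 174 and 248 CPM in LECs, 1.42 times (1.26 to 1.60), and at 157 and 161 CPM in BECs, 117 and 107 CPM in B cells and 156 and 151 CPM in T cells. Its LEC ratio was 1.47 in male and 1.62 in female cells. Atp5o was therefore higher in LECs of the ATG5LEC-KO library while B and T cells were slightly lower, and Atp5k was higher in all 4 classes. Ndufaf3, which helps assemble the arm of complex I that carries electrons, had the highest ratio at 1.46, but its interval of 0.921 to 2.25 spanned 1, at 13.0 and 19.0 CPM.

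The other members of complex V at least 25% higher were Atp5b, the catalytic beta subunit, at 204 and 267 CPM, Atp5c1, the gamma subunit of the rotating shaft, at 116 and 158 CPM, Atp5e, the epsilon subunit beside it, at 138 and 190.3 CPM, Atp5j at 134 and 172 CPM and Atp5mpl at 103 and 136 CPM. Subunits of the catalytic head, the rotating shaft, the stalk and the membrane part were among these 7. In complex I the members at least 25% higher included Ndufa10 (113 and 151 CPM), Ndufb9 (55.5 and 75.3 CPM) and Ndufs8, a core iron-sulfur subunit (20.3 and 28.5 CPM), whose ratio of 1.402 had an interval from 0.971 to 1.99. In complex II, Sdha stood at 1.28 times and Sdhc at 1.36 times the WT level, whereas Sdhd, at 97.8 and 96.8 CPM, and Sdhb, at 43.0 and 38.6 CPM, were not higher.

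The lowest members in LECs were Ndufa11, Ndufs5 and Uqcrc1. Ndufa11, a membrane subunit of complex I that contacts complex III in supercomplexes (chr17:56717767-56722141, plus strand), stood at 28.1 and 15.8 CPM in LECs, 0.562 times (0.354 to 0.861), at 9.36 and 3.37 CPM in B cells and at 13.5 and 7.20 CPM in T cells. The LEC ratio was 0.343 in male and 0.775 in female cells. Ndufs5, an accessory subunit of the membrane arm (chr4:123712710-123718202, minus strand), stood at 109 and 83.5 CPM in LECs, 0.765 times (0.629 to 0.924), at 105 and 81.1 CPM in BECs and at 49.8 and 34.6 CPM in T cells, with a LEC ratio of 0.688 in male and 0.905 in female cells. Uqcrc1, a core subunit of complex III, stood at 22.7 and 18.3 CPM in LECs, 0.807 times (0.520 to 1.21), and was lower in BECs at 0.561 times, in B cells at 0.611 times and in T cells at 0.634 times. Its LEC ratio was 0.565 in male and 1.065 in female cells, so its direction in LECs differed between the sexes. Over all cells of a class, all 3 were lower in each of the classes named here for them.

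**Figure D5:**
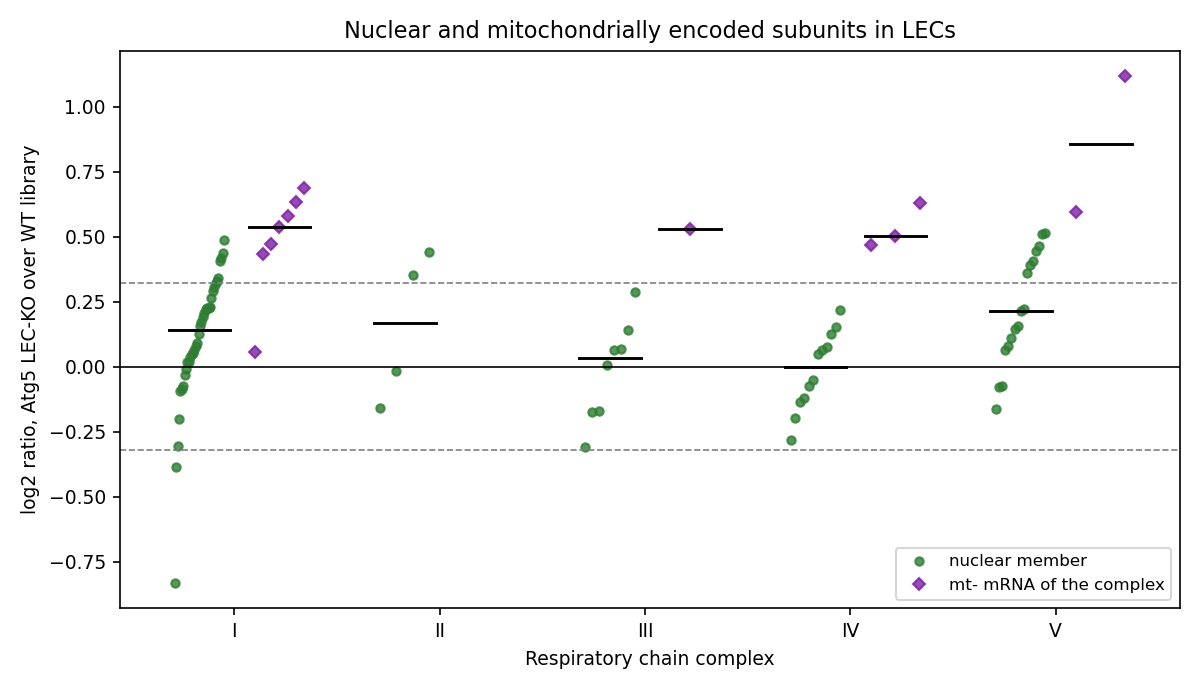
Log2 ratio of ATG5LEC-KO to WT in LECs for each nuclear member with at least 100 UMIs, grouped by complex, and for the mt- mRNAs on the scale of all UMIs, with black bars for the median of each group and dashed lines at 25% higher and 20% lower. The median of complex V lies at 0.21 and that of complex IV at 0.00, and 12 of the 13 mt- mRNAs lie past the upper line.

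Complex IV genes in LECs centred on no difference, with a spread to both sides. Cox7c, with 11947 UMIs over all analysed cells the most of its complex (chr13:86044816-86046904, minus strand), stood at 516 and 424 CPM in LECs, 0.822 times (0.754 to 0.894), at 372 and 344 CPM in BECs, at 317 and 255 CPM in B cells and at 359 and 264 CPM in T cells. It was lower in all 4 classes, most in T cells at 0.736 times. Cox4i1, at 227 and 209 CPM in LECs, 185 and 171 CPM in BECs, 134 and 122 CPM in B cells and 180.1 and 149 CPM in T cells, was likewise lower in all 4, and so was Cox6c. Cox6a1 and Ndufa4 were higher in LECs, at 458 and 483 CPM and at 189 and 219 CPM. By sex, the LEC ratio was 0.840 in male and 1.105 in female cells for Cox4i1, 0.855 and 1.05 for Cox6c, 0.918 and 1.24 for Cox6a1 and 1.08 and 1.46 for Ndufa4, so only Ndufa4 of these 4 kept its direction in both sexes. Cox7c was below the WT level in both, at 0.772 and 0.934 times.

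In medullary-like LECs 61 subunits had enough UMIs, of which 40 were higher, 11 at least 25% higher against 17% of all genes and 7 at least 20% lower against 16.3%. Atp5j, the coupling factor of the ATP synthase stalk, stood at 128 and 201 CPM (1.57 times, 1.19 to 2.08), Ndufb8 at 138 and 214 CPM (1.56 times) and Ndufb5 at 82.6 and 120 CPM (1.45 times). The lowest were Ndufc1 at 123 and 69.4 CPM (0.564 times, 0.391 to 0.809), Sdhd at 125 and 88.3 CPM (0.709 times) and Ndufs5 at 118 and 84.6 CPM (0.715 times).

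The other broad classes showed a small lower level in the ATG5LEC-KO library in the summed subunits. BECs were at 0.976 times the WT level (0.959 to 0.994), B cells at 0.961 times (0.945 to 0.978) and T cells at 0.965 times (0.951 to 0.979), with mt- genes at 0.986, 0.998 and 1.02 times. Complex IV was below 1 in these classes too, at 0.933 (0.901 to 0.965) in BECs. Within them, HEV cells were at 1.07 times (1.02 to 1.12), tip-like cells at 0.956 times and regulatory T-like cells at 0.938 times, with complex II at 0.757 times (0.615 to 0.932) in the last. The BEC value was 1.01 in male and 0.806 in female cells, and 1.03 when cells with over 10% mt- UMIs were left out.

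More members were past the lower than the upper bound in these classes, as was so over all genes. The counts of lower members were near or below the shares over all genes. In BECs 3 of 74 subunits were at least 25% higher and 8 at least 20% lower, against 11.6% and 14.8% of all genes. In B cells 1 of 76 was higher and 5 lower, against 8.08% and 9.02%, and in T cells none of 76 was higher and 9 lower, against 7.68% and 9.15%. In BECs the highest were Ndufa9, a subunit at the join of the arms of complex I, at 34.3 and 52.0 CPM (1.51 times, 1.15 to 2.00), the assembly factor Ndufaf4 at 42.0 and 57.9 CPM (1.38 times) and Ndufb4 at 45.4 and 61.0 CPM (1.34 times), and the lowest were Uqcrc1 at 30.9 and 17.3 CPM, Ndufa5 at 45.0 and 32.7 CPM and Cox7a2l at 204 and 151 CPM. Ndufa9 went the other way in B cells, at 38.9 and 27.9 CPM (0.718 times), as did Ndufaf4 at 0.776 times. In B cells the highest were the assembly factor Ndufaf2 at 11.1 and 22.6 CPM (2.04 times, 1.39 to 3.05), Cox7a2 at 47.1 and 59.4 CPM (1.26 times) and Atp5c1 at 93.4 and 116 CPM (1.24 times), and the lowest were Ndufv1, the NADH-binding subunit, at 20.2 and 11.1 CPM (0.549 times, 0.371 to 0.807), Uqcrc1 and Sdhaf4 (0.666 times). Ndufv1 was also lower in T cells, at 20.1 and 10.8 CPM (0.537 times). In male B cells alone the Ndufv1 ratio was 0.871, with an interval from 0.465 to 1.60.

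A set of members differed in the same direction in every class. Of the 52 subunits with at least 100 UMIs in each of 6 separate classes (LECs, BECs, B cells and the CD4-like, CD8-like and regulatory T-like cells), 3 were higher in all 6 in the ATG5LEC-KO library, namely Ndufs4, Atp5c1 and Atp5k, which is 5.77% against 7.51% of 2702 such genes. A further 7 were lower in all 6, namely Ndufb11, Uqcrfs1, Cox4i1, Cox6c, Cox7c, Atp5d and Atp5j2, which is 13.5% against 6.48%. Atp5c1 was at 1.36 times in LECs, 1.21 in BECs, 1.24 in B cells and 1.205 in T cells. Since the deletion is directed at LECs and each class comes from the same pair of libraries, a difference shared by all classes cannot be told apart from a difference between the libraries.

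The mitochondrially encoded partners of these subunits were higher in ATG5LEC-KO LECs as a group. All 13 mt- mRNAs were higher and 12 were at least 25% higher, with a median log2 ratio of 0.54 on the scale of all UMIs. By complex, mt-Co1, the catalytic core of complex IV, stood at 22321 and 31649 CPM of all UMIs (1.42 times), mt-Cytb of complex III at 7311 and 10559 CPM (1.44 times), mt-Nd4 of complex I at 7854 and 10617 CPM (1.35 times) and mt-Atp6 of complex V at 8021 and 12123 CPM (1.51 times). The highest was mt-Atp8 of complex V at 268 and 582 CPM, 2.17 times (2.01 to 2.35), and the lowest mt-Nd4l of complex I at 2598 and 2705 CPM, 1.04 times (1.01 to 1.08). Both stood at the same ends in the other classes: mt-Atp8 was at 1.34 times the WT level in BECs, 1.525 in B cells and 1.56 in T cells, and mt-Nd4l at 0.682, 0.739 and 0.740 times. Complex IV thus had mt- core genes well above the WT level and nuclear genes at 0.976 times in the same LECs. The mt- ratio of LECs lay between 1.19 and 1.64 under every alternative run, the lower value with cells of over 10% mt- UMIs left out and the higher with no limit on mt- UMIs.

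Other mitochondrial and metabolic lists in LECs had median log2 ratios from -0.09 to 0.20, against 0.09 for the subunits. Of 71 mitochondrial ribosomal proteins 51 were higher in the ATG5LEC-KO library, 24 of them at least 25%, against 20% of all genes, and 7 were at least 20% lower, with a median log2 ratio of 0.20. Of 17 TCA cycle enzymes 10 were higher (median 0.10), and of 21 other assembly factors 13 (median 0.08). Glycolytic genes were higher in 7 of 16 (median -0.04), genes of mitochondrial DNA upkeep and biogenesis in 5 of 10 (median 0.01), genes of mitophagy and mitochondrial quality in 8 of 16 (median 0.01), electron carriers in 5 of 12 (median -0.09) and hypoxia response genes in 5 of 9 (median 0.07). Cytosolic ribosomal proteins were higher in 58 of 82 (median 0.13). The assembly factors among the members were few in number of UMIs: all 4 of complex I and all 3 of complex II with at least 100 UMIs were higher in LECs, with every interval spanning 1. By transcript length, the median log2 ratio in LECs was 0.08 for subunits and 0.06 for all genes below 600 bases, 0.13 and 0.06 between 600 and 1000 bases, and 0.06 and 0.05 between 1000 and 2000 bases.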

How the data were processed

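Single cells of pooled nodes were measured in 1 library per genotype. Per the file headers, the authors made the deposited counts with the BD Rhapsody WTA Analysis Pipeline 1.11 (Enhanced beads, mm10, intronic reads not excluded), as whole-number molecules per barcode and gene without normalization, and the error-corrected molecules were used. The submitters' processing notes also name mm10. Cells were called from the barcode rank curve, kept with at least 200 genes and at most 25% mt- UMIs, and cleared of 28 and 36 doublet calls (expected 6%), then clustered in scanpy 1.11.5 (python 3.11.15, 2000 variable genes, 30 components, 15 neighbours, Leiden resolution 1). Clusters were named from marker lists with thresholds set after the clusters had been seen. Ceiling, capillary and venous names failed a check of leading markers, so genotype ratios are given there by sub-cluster. The exception is an alternative that averages ceiling-like and medullary-like LECs. Within-library ratios to ceiling-like cells are descriptive. Only 3 members (Cox4i2, Ndufa4l2, Ndufaf5) were among the variable genes.

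UMIs were summed per class and library, with exact Poisson, conditional binomial and Clopper-Pearson 95% intervals (scipy 1.17.1), which cover counting error only. Cells were assigned to a sex from Xist and 4 Y-linked genes. A member was counted with at least 100 UMIs, with bounds of 25% higher or 20% lower between genotypes and 1.5-fold between classes in both libraries. The text names the 3 members with most UMIs per complex, the 3 highest and lowest by genotype in LECs, medullary-like LECs, BECs and B cells, the 4 highest and lowest between LECs and B cells, BECs or niches, all isoform sets and complex II. Other members were named after their values were seen. One result that the rule would name is not reported here. Members and lists were chosen with earlier results of these data known. Processed pseudogenes of these genes could take a share of reads, which was not tested. The summing was tested on simulated data.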

Additional observations from a re-analysis of the deposited data

Results flagged for a closer look

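Genotype ratios of ATG5LEC-KO to WT lay on opposite sides of 1 in different classes, with counting intervals that did not span 1, and the differences between classes were not tested. The summed subunits were at 1.08 in LECs, against 0.976 in BECs, 0.961 in B cells and 0.965 in T cells. Complex I was at 1.11 in LECs and 0.970 in T cells, and complex V at 1.17 in LECs and 0.967 in B cells. The mt- genes were at 1.44 in LECs and 0.986 in BECs. The LEC directions of these nuclear sums did not hold under every alternative: with the 4 sub-clusters weighted equally the summed subunits were at 0.959 and complex V at 0.983, and among male cells complex I was at 0.992. The BEC values also moved above 1, to 1.03 for the subunits and 1.025 for mt- genes, with cells of over 10% mt- UMIs left out.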

How the results depend on the processing

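No paired analysis was possible because each genotype has 1 library. Across 19 alternative settings, 488 values were recomputed: 364 stayed within the main value's interval or within 1.5 times its count, 112 moved further, and 12 whose interval had not spanned no difference changed sign. Values close to no difference crossed it more often: mt- genes of B cells kept their side in 5 of 10 alternatives and the BEC median in 9 of 12. The LEC sum of subunits kept its direction in 15 of 16 alternatives (0.959 to 1.2), and the mt- ratio in LECs in 12 of 12 (1.19 to 1.64). The cause of each shift was not tested. On CPM of all UMIs, the LEC sum was 1.05, the median 0.0412, 5 members were at least 20% lower, and WT LECs were 1.55 times B cells and 1.18 times BECs. Without cytosolic ribosomal proteins, LECs were 1.42 (WT) and 1.61 (ATG5LEC-KO) times B cells. With at most 10% mt- UMIs, the genotype ratio was 1.03 in BECs (reversed) and 0.947 in T cells, the mt- ratio 1.19 in LECs and 1.03 in BECs (1.025, reversed), 6 LEC members were lower, LECs were 1.58 and 1.79 times B cells and 1.17 and 1.24 times BECs. With no limit, LECs were at 1.06 and their mt- genes at 1.64. Raw molecules gave an mt- ratio of 1.45. Means over cells gave 1.39 for mt- genes in LECs, 1.66 for LECs over B cells (ATG5LEC-KO), and 1.23 and 1.34 for LECs over BECs, and keeping doublets gave 1.17 (1.165) for the last in WT. Resolution 2 gave 0.944 in B cells (0.9435) and 1.01 for mt- genes in BECs (reversed). Male cells gave 1.003 in LECs, 1.01 in BECs (1.007, reversed), 0.948 in T cells, 0.988 in medullary-like LECs (0.9875, reversed), 0.992 for complex I (reversed), mt- ratios of 1.398 in LECs and 1.01 in BECs (1.007, reversed), a median of 0.0209, and 8 members higher and 7 lower. Female cells gave 1.2 in LECs, 0.805 in BECs (0.8055), 0.987 in B cells, 0.997 in T cells (0.9965), 1.55 for mt- genes, a median of 0.27, 31 higher, 0 lower and a B cell median of 0.0204 (reversed). Means over ceiling-like and medullary-like LECs gave 1.05, a median of 0.0462 and 5 lower. Means over LEC sub-clusters, chosen after seeing the data, gave 0.959 (reversed), complex II 0.985 and complex V 0.983 (both reversed), mt- genes 1.39, a median of -0.0780 (reversed), and 4 higher and 16 lower. Without LEC sub-cluster 4, also chosen after seeing the data, mt- genes were at 1.41. At 1.5-fold between genotypes 0 members were higher and 1 lower, and at 2-fold between classes 16 were higher in LECs than in B cells. Shares over all genes were not computed for the counts of members under the alternatives. Depth limits members of low count, such as Ndufaf3 and Uqcrc1 in LECs, whose intervals spanned 1, and floor-like LECs of the ATG5LEC-KO library, with 8 cells.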
